A study of Mus musculus with 6 samples.

Results

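The Cyp2c genes encode a subfamily of cytochrome P450 enzymes that lie side by side in a single cluster of the mouse genome. The 9 genes described here are Cyp2c29, Cyp2c37, Cyp2c38, Cyp2c39, Cyp2c40, Cyp2c50, Cyp2c54, Cyp2c55 and Cyp2c70, and a probe set was taken as a member when the platform annotation gave it 1 of these symbols and no other. Of 22690 probe sets in the table, 8 met this rule, 1 for each gene except Cyp2c40. No probe set carried the Cyp2c40 symbol, alone or with others. The members are thus 8 of 12393 genes with a probe set of their own. All 8 were bright enough to be tested, among 14755 tested probe sets.

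RNA came from whole liver of Swiss-Webster mice, an outbred stock, and each sample was hybridised to 1 Affymetrix MOE430A array, giving 6 arrays in 3 groups of 2. The control group (replicates 1 and 2) ate a control diet. The fraction 1 group (replicates a and b) ate a diet holding 1% of a hexane fraction of Boswellia serrata, the Indian frankincense tree, for 21 days, and the fraction 2 group (replicates a and b) ate 1% of a methanol fraction for 21 days. The labels give neither the sex nor the age of the mice, and do not say whether a replicate was 1 animal or a pool, so every p-value here reflects no more than the spread among these arrays, which may be technical.

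P450 enzymes of the Cyp2c subfamily sit in the endoplasmic reticulum of liver cells, where they oxidise drugs and other foreign compounds and also the fatty acid arachidonic acid, which they turn into epoxides and hydroxy acids with signalling activity. Several members are induced by foreign compounds through the nuclear receptors CAR and PXR, while basal expression in hepatocytes depends on liver factors such as HNF4A. Cyp2c70 stands apart in function, since it hydroxylates bile acids and makes the muricholic acids that are typical of mice.

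The start regions of 5 members show how far Cyp2c55, the member with the highest change, differs in sequence from Cyp2c29, Cyp2c39 and Cyp2c38 and from Cyp2c70 at the other end of the cluster. Each line below gives the 250 bases before the RefSeq transcription start (build GRCm38.p6), 5′ to 3′ on the gene's own strand. Cyp2c55 is at chr19:39006769-39007018 on the plus strand, Cyp2c29 at chr19:39286835-39287084 (plus), the first of 2 listed starts of Cyp2c39 at chr19:39347096-39347345 (plus), Cyp2c38 at chr19:39463076-39463325 (minus) and Cyp2c70 at chr19:40187287-40187536 (minus). Capitals mark AGGTCA (a nuclear receptor half-site), CAAAGTC (the core of an HNF4A site), TGTTTAC (a FOXA site) and TATAAA (bound by the TATA-binding protein), each searched on both strands.
Cyp2c55: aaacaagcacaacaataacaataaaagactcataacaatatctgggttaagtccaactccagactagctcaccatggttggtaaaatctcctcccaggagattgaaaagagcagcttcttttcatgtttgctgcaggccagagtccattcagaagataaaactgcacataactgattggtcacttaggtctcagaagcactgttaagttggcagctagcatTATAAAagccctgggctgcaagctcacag
Cyp2c29: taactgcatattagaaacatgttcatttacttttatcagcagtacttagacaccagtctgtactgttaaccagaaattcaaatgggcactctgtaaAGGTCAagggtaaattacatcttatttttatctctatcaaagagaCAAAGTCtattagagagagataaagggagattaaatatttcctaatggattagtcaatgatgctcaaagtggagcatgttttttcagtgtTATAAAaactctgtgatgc
Cyp2c39: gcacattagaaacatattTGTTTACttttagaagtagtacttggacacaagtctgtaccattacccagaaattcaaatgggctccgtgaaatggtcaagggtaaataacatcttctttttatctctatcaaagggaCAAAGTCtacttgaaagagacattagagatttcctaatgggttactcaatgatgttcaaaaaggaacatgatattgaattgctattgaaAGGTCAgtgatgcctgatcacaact
Cyp2c38: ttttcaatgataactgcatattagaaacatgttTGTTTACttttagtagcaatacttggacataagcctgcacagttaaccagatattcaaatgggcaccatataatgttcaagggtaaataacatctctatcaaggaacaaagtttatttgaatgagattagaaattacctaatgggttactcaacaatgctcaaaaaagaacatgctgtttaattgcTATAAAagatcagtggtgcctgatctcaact
Cyp2c70: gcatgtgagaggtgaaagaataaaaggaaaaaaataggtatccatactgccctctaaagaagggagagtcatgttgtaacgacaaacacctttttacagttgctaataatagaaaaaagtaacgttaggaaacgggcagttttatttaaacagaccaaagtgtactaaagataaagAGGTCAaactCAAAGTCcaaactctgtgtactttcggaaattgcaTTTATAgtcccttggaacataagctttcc
The search covered 300 bases per start, these 250 and the 50 that follow, for 9 windows of 8 member genes, since the table used had none for Cyp2c54. CAAAGTC was in 6 of the 9 windows and in 4.44% of all 32851 windows in the table, TATAAA in 6 and 13.6%. TGTTTAC was in 3 and 3.65%, and AGGTCA in 3 and 16.3%. Both windows of Cyp2c39 are counted in these, and windows that resemble each other are not independent. TATAAA lay at -3 in the second Cyp2c39 window and at 41, past the start, in that of Cyp2c40. The window of Cyp2c55 held TATAAA at -29 from the start and none of the other 3 motifs. Sites outside these 300 bases were not searched for in any member. Such a lack was not particular to Cyp2c55. The Cyp2c50 window held none of the marked motifs, and the Cyp2c38 window neither AGGTCA nor CAAAGTC. TTCNNNGAA (a STAT5 site) and TGACNNNGC (the core of an antioxidant response element) were in none of the 9 member windows and in 8.3% and 12.4% of all windows. No match of 1 motif overlapped that of another. Some windows resembled each other. Those of Cyp2c37 and Cyp2c50 were 86.6% identical, those of Cyp2c38 and Cyp2c39 78.1%, and those of Cyp2c29 and Cyp2c39 75.7%. Not all neighbours did so, since Cyp2c50 and Cyp2c70, next to each other in the cluster, shared 49.6%. Cyp2c55 shared 47.6% to 55.1% with each of the rest. Low identity was not particular to Cyp2c55, since the Cyp2c70 window shared 47.1% to 49.6% with the rest and the Cyp2c40 window 43.6% to 49.6%. The motifs were chosen with the sequences in view, and a match is a run of letters and not a measured binding site.

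The arrays had equal trimmed means (within 0.15%) and median signals of 139.3 to 167.2 array units. With 2 arrays a group, their number limits the precision. The actin 3′ to 5′ ratio, which rises as RNA degrades, was 3.87 on the array of control replicate 2 and 2.13 to 2.64 on the rest. Control replicate 1 and fraction 2 replicate a were scanned in a second session, and the other 4 arrays in the first. Of 3 chip lots, 1 comprised both arrays of the second session, another control replicate 2 with fraction 1 replicate a, and the last both b replicates. Control replicate 1 correlated more closely with fraction 2 replicate a of its own session (r = 0.971 over log2 values) than with control replicate 2 (r = 0.941). Across the 14755 tested probe sets, which are not independent, the difference between the control arrays and that between the fraction 2 arrays, both second minus first session, correlated at r = 0.296. Of 12 hepatocyte markers 11 had a probe set of their own, and 0 of these were under 50 array units on both arrays of any group.

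Cyp2c55 was the member that responded to both fractions. This enzyme, known from colon as well as from induced liver, oxidises arachidonic acid to hydroxyeicosatetraenoic acids. Its probe set read 217.3 and 268.7 array units in control liver, 9465.9 and 8471.4 after fraction 1, and 6644.6 and 6039.9 after fraction 2. The 3 groups did not overlap, and the lowest treated array stood far above both controls. On the log2(signal + 16) scale Cyp2c55 rose by 5.12 ± 0.17 (SE, 2 arrays against 2) after fraction 1, a 34.8-fold change with a 95% confidence interval from 26.5 to 45.7 (limma, adjusted p = 1.14e-05). After fraction 2 it rose by 4.62 ± 0.17, a 24.6-fold change with an interval from 18.8 to 32.4 (limma, adjusted p = 2.69e-05). Among all 14755 tested probe sets, these changes ranked 2 and 1 from the highest. Both comparisons use the same control arrays.

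**Figure D1:**
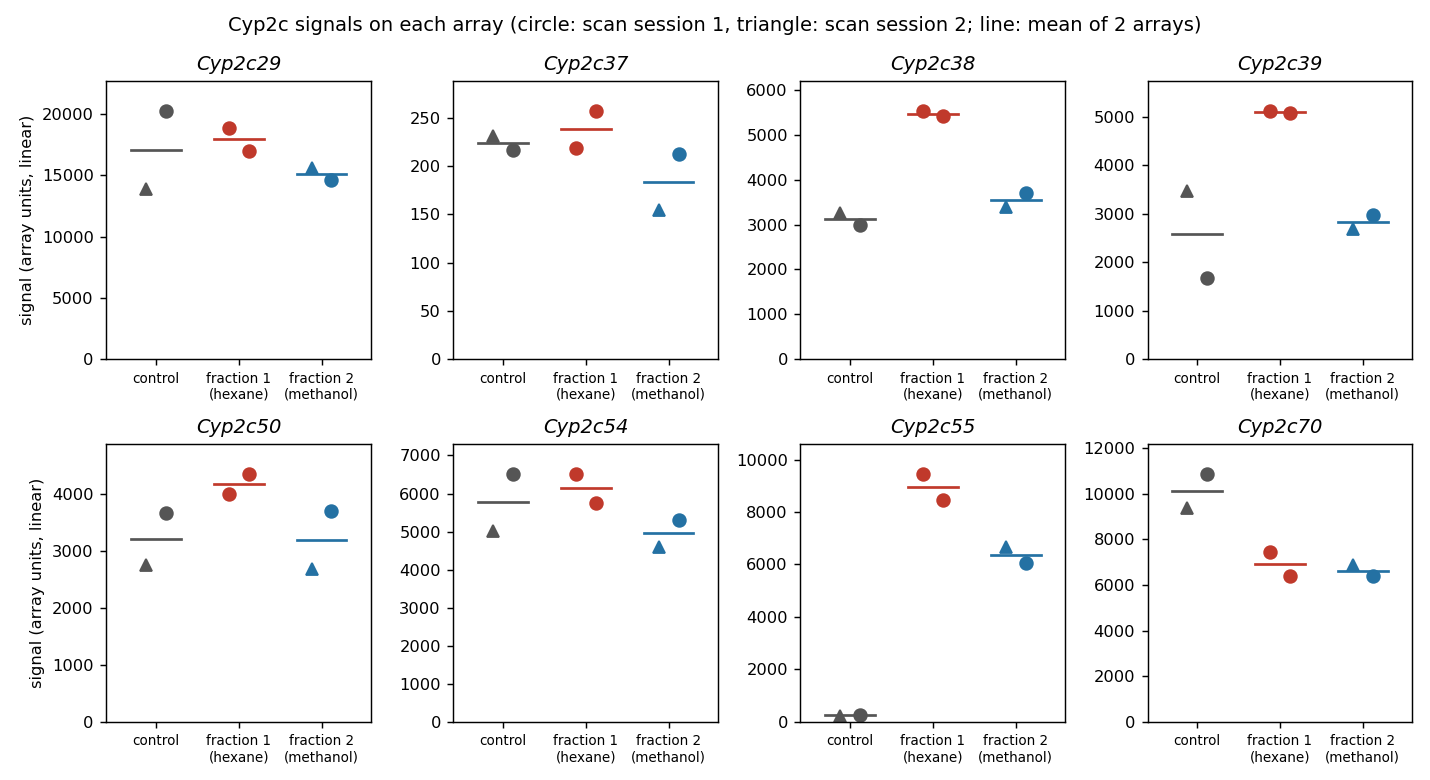
Signal of each of the 8 Cyp2c probe sets (linear array units, each panel from 0 on its own scale) on the 2 arrays of each group; circles are arrays of scan session 1, triangles those of session 2, and the line is the mean of 2 arrays. The Cyp2c55 controls lie at 217.3 and 268.7 and all 4 treated arrays at 6039.9 or more, while the groups of Cyp2c29 and Cyp2c54 lie close together.

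Within the first scan session Cyp2c55 stood 4.98 above control after fraction 1 and 4.41 after fraction 2, and within the second session 4.84 after fraction 2. The second session held no fraction 1 array. Between the fractions, Cyp2c55 was 0.50 ± 0.17 higher after fraction 1 (95% confidence interval 0.11 to 0.89), a 1.41-fold difference that did not pass over all probe sets (limma, adjusted p = 0.531). The order of levels was thus fraction 1, fraction 2 and control, and the first 2 groups, although their arrays did not overlap, could not be separated by the test.

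After fraction 1, Cyp2c55 was the 1 member of 8 that passed, against 0.712% of all tested probe sets (0.366% in the upward direction). At an unadjusted p under 0.05 in limma, 3 were higher (Cyp2c38, Cyp2c39 and Cyp2c55) and 1 lower (Cyp2c70), where 12.4% of all tested probe sets were past that level (5.92% higher, 6.48% lower). The groups did not overlap for 5 of the 8 members, with 4 higher and 1 lower than control, where 40.9% of all tested probe sets showed such a separation (18.8% higher, 22.1% lower). The median of the 8 log2 differences was 0.24, against -0.02 over all tested probe sets.

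Cyp2c38 and Cyp2c39, neighbours in the cluster and both enzymes that oxidise arachidonic acid, had the next highest values after fraction 1. The Cyp2c38 probe set read 3258.5 and 2989.5 array units in control, 5536.3 and 5415.3 after fraction 1, and 3381.6 and 3701.3 after fraction 2. Both fraction 1 arrays exceeded all 4 others, and the difference from control was 0.81 ± 0.14 (95% confidence interval 0.48 to 1.14, a 1.75-fold value). It just missed the threshold (limma, adjusted p = 0.0522). It did not pass under any of the 17 alternative settings, with values of 0.75 to 0.87, and was in some of them further from the threshold than here. After fraction 2 the Cyp2c38 difference was 0.18 (limma, adjusted p = 0.815).

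Cyp2c39 read 3475.9 and 1678.5 array units in control, 5124.6 and 5077.0 after fraction 1, and 2689.2 and 2980.8 after fraction 2. The control arrays differed from each other by 1.04 in log2, the widest gap between replicates of any member in any group, while the fraction 1 arrays nearly coincided. Fraction 1 stood 1.07 ± 0.29 above control (95% confidence interval 0.40 to 1.74; limma, adjusted p = 0.167). The value of Cyp2c39 depended on which control was used: it was 1.59 without control replicate 1, where it passed (limma, adjusted p = 0.0112), as it did within the first scan session, and 0.55 without control replicate 2. After fraction 2, Cyp2c39 stood at 0.23 with overlapping groups, and at 0.82 within the first session and -0.37 within the second. Control replicate 2, the low control for Cyp2c39, is the array with the high actin ratio; the part of RNA quality in this was not tested.

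Cyp2c29, regarded as a main arachidonic acid epoxygenase of mouse liver, lies next to Cyp2c39 in the cluster. Its signal was 13918.9 and 20273.3 array units in control, 18877.6 and 17003.2 after fraction 1, and 15610.7 and 14583.5 after fraction 2. Both treated groups overlapped with control. The differences were 0.09 (95% confidence interval -0.30 to 0.48; limma, adjusted p = 0.895) after fraction 1 and -0.15 (adjusted p = 0.851) after fraction 2. The sign of the second value changed with quantile normalization (0.07), so Cyp2c29 has no settled direction here.

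**Figure D2:**
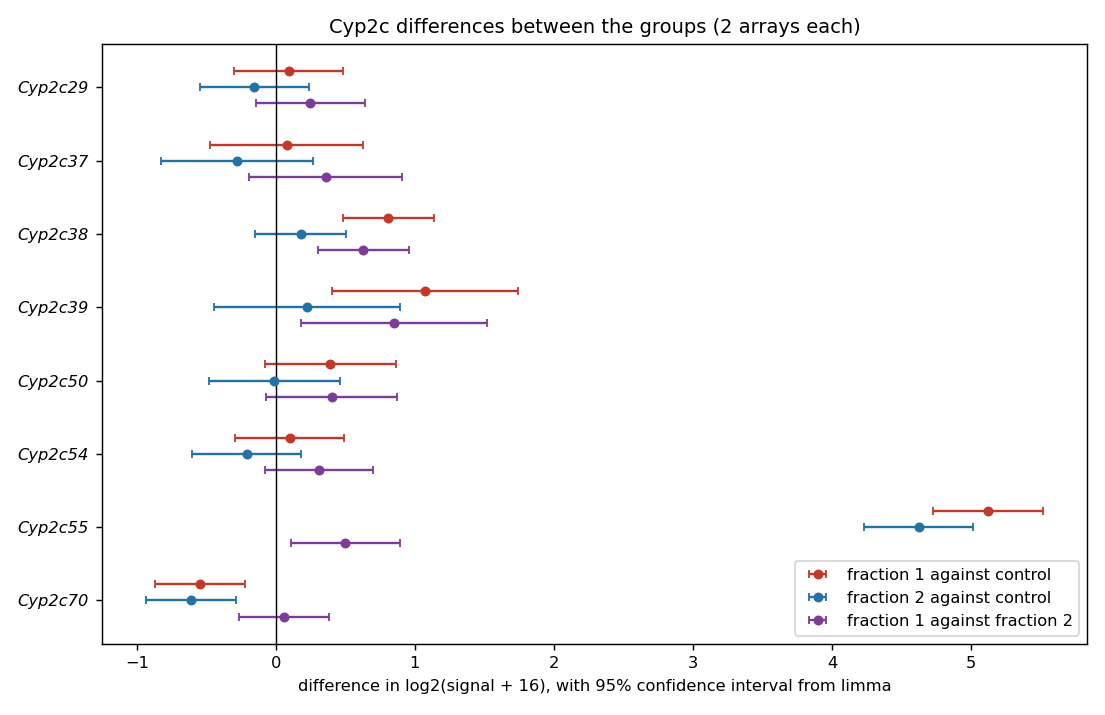
Difference in log2(signal + 16) for each Cyp2c probe set between groups of 2 arrays, with the 95% confidence interval from limma; red is fraction 1 against control, blue fraction 2 against control and purple fraction 1 against fraction 2. Cyp2c55 stands at 5.12 and 4.62 against control, and every other member lies between -0.61 and 1.07 in each comparison.

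Cyp2c37, Cyp2c50 and Cyp2c54 are closely related members that oxidise arachidonic and linoleic acid. Cyp2c37 read 231.3 and 216.9 array units in control, 218.9 and 257.4 after fraction 1, and 154.9 and 212.8 after fraction 2. Cyp2c50 read 2763.8 and 3675.8 in control, 4004.5 and 4364.7 after fraction 1, and 2694.4 and 3706.2 after fraction 2. Cyp2c54 read 5006.3 and 6525.3, 6521.5 and 5748.7, and 4589.4 and 5313.4 in the same order. Only Cyp2c50 had separate groups after fraction 1, where it stood at 0.39 ± 0.21 (limma, adjusted p = 0.499), against 0.08 for Cyp2c37 and 0.10 for Cyp2c54. After fraction 2 these 3 genes stood at -0.01 (Cyp2c50), -0.28 (Cyp2c37) and -0.21 (Cyp2c54), with adjusted p from 0.815 to 0.992 in limma. The value of Cyp2c50 after fraction 2 turned to 0.10 when each array was centred on its median.

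Cyp2c70, the bile acid hydroxylase at the far end of the cluster, was the member with lower values after both fractions. Its probe set read 9389.7 and 10892.2 array units in control, 7453.9 and 6406.6 after fraction 1, and 6856.3 and 6407.8 after fraction 2. All 4 treated arrays lay below both controls. The differences were -0.55 ± 0.14 (95% confidence interval -0.87 to -0.22) after fraction 1 and -0.61 ± 0.14 (-0.93 to -0.28) after fraction 2, and neither passed over all probe sets (limma, adjusted p = 0.15 and 0.388). The values ran from -0.66 to -0.44 and from -0.76 to -0.48 over the alternatives, without passing in any. None of the 11 hepatocyte markers passed in either comparison in limma. At an unadjusted p under 0.05, 3 were lower after fraction 1 and 7 after fraction 2, against 7.16% and 3.92% of all 9209 tested genes, and none was higher. Their median was -0.24 after fraction 1, with 4 of 11 above 0, and -0.36 after fraction 2, with 2 above 0. Their summed signal was 205000 to 229200 array units in control, 175100 to 199500 after fraction 1 and 165200 to 176200 after fraction 2. The part of this in the Cyp2c70 values was not tested. In whole liver RNA, fewer cells of a type and less RNA per cell cannot be told apart. Nor was the part of array scaling in the marker values tested. With quantile normalization, Cyp2c29 and Cyp3a11, also of high signal, moved upward after fraction 2. Cyp2c29 went from -0.155 to 0.074 and Cyp3a11 from -0.012 to 0.231.

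After fraction 2, 1 member of 8 passed, again Cyp2c55, against 0.108% of all tested probe sets (0.0949% upward). The groups did not overlap for 4 members, 2 higher (Cyp2c55 and Cyp2c38) and 2 lower (Cyp2c70 and Cyp2c37), where the share over all tested probe sets was 35.2% (14.8% higher, 20.4% lower). The median of the 8 differences was -0.08, against -0.04 over all tested probe sets.

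Between the fractions no member passed, where 0.0136% of all tested probe sets did. The count at an unadjusted p under 0.05 in limma was 3 of 8, all higher after fraction 1 (Cyp2c38, Cyp2c39 and Cyp2c55), against 8.04% of all tested probe sets (3.86% higher). For 7 of the 8 members, all except Cyp2c70, both fraction 1 arrays exceeded both fraction 2 arrays, and over all tested probe sets the groups did not overlap for 46.8%, higher after fraction 1 for 25.4%. Cyp2c38 was 0.63 ± 0.14 higher after fraction 1 than after fraction 2 (95% confidence interval 0.30 to 0.95; limma, adjusted p = 0.315), and Cyp2c39 0.85 ± 0.29 (0.18 to 1.52; adjusted p = 0.531). Cyp2c70 stood at 0.06 (-0.26 to 0.38; adjusted p = 0.922), a value that turned to -0.04 with quantile normalization and to -0.03 with median centring. The median over the 8 members was 0.38, against 0.02 over all tested probe sets. Cyp2c29 (0.25), Cyp2c54 (0.31), Cyp2c37 (0.36) and Cyp2c50 (0.40) made up the rest, each with an interval that included 0.

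Along the chromosome, Cyp2c55 was the 1 tested gene of the cluster that passed. In the gene table the cluster on chromosome 19 holds 18 Cyp2c genes and pseudogenes, 14 of them protein-coding, with 0 other protein-coding genes among them. Cyp2c55 lies near one end, next to Cyp2c65 and Cyp2c66, followed by Cyp2c29, Cyp2c39 and Cyp2c38, then Cyp2c40, then Cyp2c37, Cyp2c54 and Cyp2c50, with Cyp2c70 at the other end. Cyp2c65, the nearest measured neighbour of Cyp2c55, was too dim to be tested and read 57.5 and 51.0 array units in control, 37.4 and 40.3 after fraction 1, and 63.1 and 78.3 after fraction 2. Its groups did not overlap, but it was not tested, and no order was read from signals this low. Cyp2c68 stood at -0.57 after fraction 1 (limma, adjusted p = 0.262) and -0.39 after fraction 2 (adjusted p = 0.747). The 3 genes on either side of the cluster (Rbp4, Plce1 and Noc3l; Pdlim1, Aldh18a1 and Tctn3) stood between -0.59 and 0.24 after fraction 1, and none passed.

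**Figure D3:**
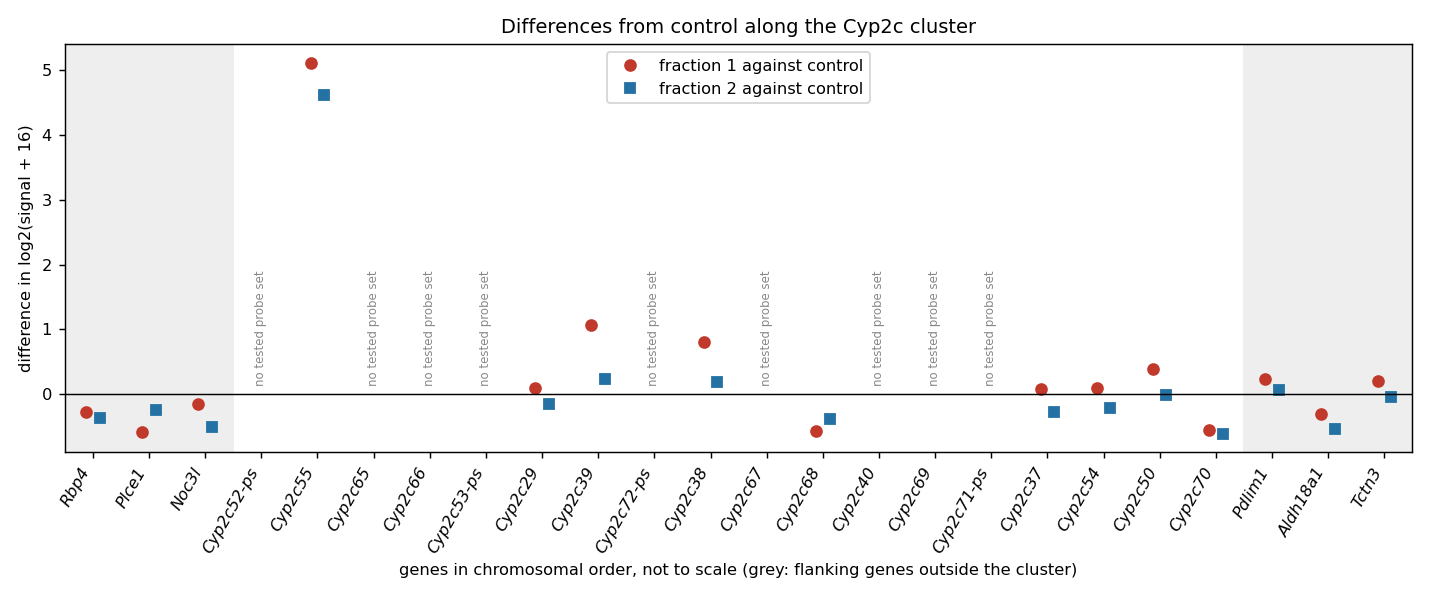
Difference in log2(signal + 16) from control after fraction 1 (red circles) and fraction 2 (blue squares), for genes in chromosomal order and not to scale; grey marks 3 flanking genes on each side, and genes without a tested probe set are labelled. Only Cyp2c55 passed the test in either comparison, at 5.12 and 4.62; Cyp2c39 and Cyp2c38 stood at 1.07 and 0.81 after fraction 1.

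Cyp2c23 belongs to the subfamily by name but lies outside the cluster, and its probe set is of a type that can match related transcripts. Its signal was 6232.5 and 6816.0 array units in control, 1561.9 and 3680.1 after fraction 1, and 4654.9 and 6924.8 after fraction 2. Both fraction 1 arrays were lower than every other array, although they differed from each other by 1.23 in log2. The difference of -1.44 ± 0.36 from control did not pass (limma, adjusted p = 0.141). Cyp2c23 did pass when the fit blocked on chip lot, at -1.85 (adjusted p = 0.0145 in limma), and its value was -0.82 without fraction 1 replicate a and -2.05 without replicate b, where it did not pass. Of the 7 further Cyp2c genes listed for comparison, 3 had a probe set and 2 were tested (Cyp2c23 and Cyp2c68), with 0 passing in either comparison with control; at an unadjusted p under 0.05, limma gave 2 lower after fraction 1 and 0 after fraction 2, where 12.9% and 7.23% of all tested genes were past that level.

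The genes whose pattern over the 6 arrays lay closest to that of Cyp2c55 were sought among 9201 other tested genes, by the root-mean-square distance between log2 values taken relative to each gene's control mean. In order they were Cyp2b10 (distance 1.2), Tubb2a (2.25), Unc119 (2.29), Gstm2 (2.38) and Inpp5j (2.39). Cyp2b10, the classical CAR target, read 282.9 and 508.9 array units in control, 6082.7 and 8063.1 after fraction 1, and 2885.5 and 2712.5 after fraction 2. Like that of Cyp2c23, its probe set is of a type that can match related transcripts, as are those of Tubb2a and, below, Gstm3, Gadd45b and Ghr. The difference of Cyp2b10 from control was 4.15 after fraction 1 and 2.83 after fraction 2 (limma, adjusted p = 5.54e-04 and 0.00918), both lower than those of Cyp2c55. The call of Cyp2b10 after fraction 1 was kept in 17 of 17 alternatives and that after fraction 2 in 13, the losses being without either fraction 2 array, without the variance trend and within the first scan session (adjusted p from 0.0947 to 0.128). Unc119 stood at 1.93 and 2.31 but did not pass in either comparison (limma, adjusted p = 0.133 and 0.342), and its control arrays were near the pseudocount, at 11.4 and 41.9. No other gene came within the distance of Cyp2b10, and the measure favours genes with a large change.

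**Figure D4:**
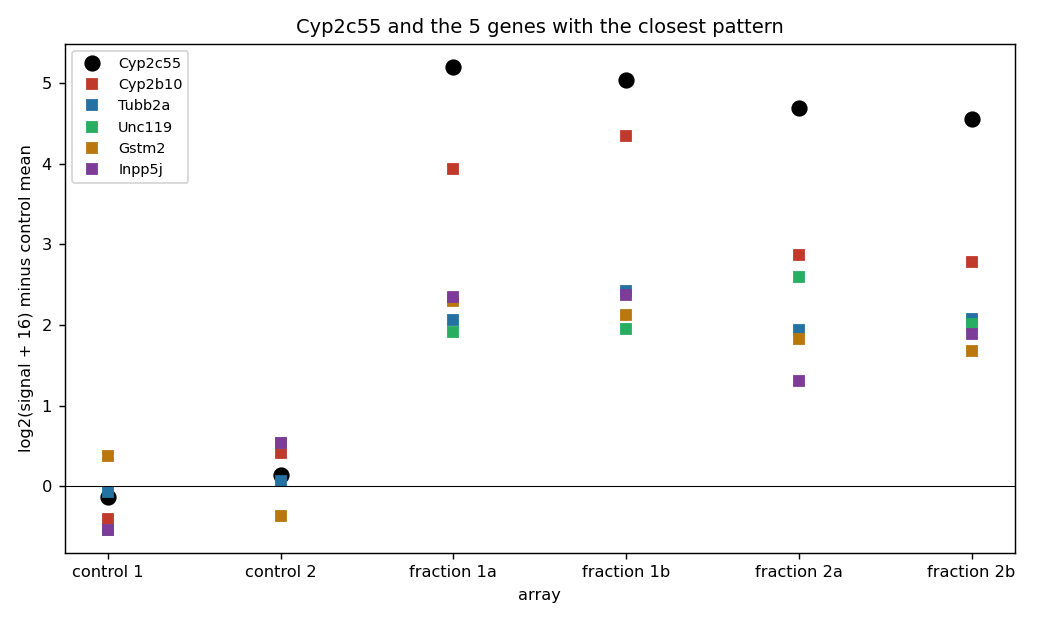
log2(signal + 16) on each of the 6 arrays minus the mean of the 2 control arrays, for Cyp2c55 (black circles) and the 5 genes with the smallest distance to it (coloured squares). On all 4 treated arrays Cyp2c55 lies highest, from 4.55 to 5.20, followed by Cyp2b10, from 2.78 to 4.35.

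Known targets of CAR and PXR outside the Cyp2c cluster were read beside the members. The list was chosen with earlier results of these data known, so its counts are not an independent test. Of 24 tested, 8 rose and 0 fell after fraction 1, with a median of 0.80 and 22 above 0. After fraction 2, 5 rose and 0 fell, with a median of 0.49 and 19 above 0. The medians over all genes were -0.03 and -0.05, and 0.738% and 0.119% of all genes passed (0.337% and 0.0977% upward). After fraction 1 Gstm2 and Gstm3, both glutathione S-transferases, rose by 2.21 and 1.89, the uptake transporter Slco1a4 by 2.07, the carboxylesterase Ces2a by 1.07 and the stress-response gene Gadd45b by 2.08. Of 17 alternatives, these calls were kept in 15 for Gstm2, 16 for Gstm3, 17 for Slco1a4, 12 for Ces2a and 13 for Gadd45b. After fraction 2 Gstm2 rose by 1.76, a call kept in 6 of 17 alternatives, Gstm3 by 1.72 (kept in 13) and Slco1a4 by 1.59 (kept in 11). Ces2a stood at 0.78 (limma, adjusted p = 0.103) and passed with quantile normalization (0.94, adjusted p = 0.0106), and Gadd45b at 0.83 (adjusted p = 0.535). The efflux transporter Abcc3, chosen after its values were seen, rose by 1.37 after fraction 2 (limma, adjusted p = 0.0488), a call kept in 3 of 17 alternatives, and stood at 0.97 after fraction 1 (adjusted p = 0.0644), where it passed with scan session or chip lot as a block (0.0478 for each). Cyp3a11, a well-known PXR target of mouse liver, read 13638.2 and 18290.6 array units in control, 18337.2 and 16945.3 after fraction 1, and 15772.3 and 15547.9 after fraction 2, and its groups overlapped (0.16, adjusted p = 0.734, and -0.01, adjusted p = 0.987, in limma; the second value was 0.23 with quantile normalization). The count of CAR and PXR targets that rose after fraction 1 was 2 without the variance trend, 4 without the filter, 4 without its replicate a and 3 without its replicate b. That after fraction 2 was 0 without either fraction 2 array and 3 without either fraction 1 array, and also 0 without the variance trend and within the first scan session. It was 2 with chip lot as a block or with only the groups compared, and 3 with median centring, a pseudocount of 64 or no filter.

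Among 17 tested regulators of Cyp2c transcription, the growth hormone receptor Ghr fell after fraction 1 and the other 16 did not pass, where 0.402% of all genes fell. The Ghr signal was 8096.0 and 7199.6 array units in control, 3750.8 and 2956.8 after fraction 1, and 5598.9 and 5741.1 after fraction 2. It fell by 1.19 on the log2 scale after fraction 1 (limma, adjusted p = 0.0238), a call kept in 9 of 17 alternatives, and stood at -0.43 after fraction 2 (adjusted p = 0.662). The genes of CAR and PXR themselves, Nr1i3 and Nr1i2, stood at 0.10 and 0.36 after fraction 1 and 0.18 and 0.08 after fraction 2, with overlapping groups. At an unadjusted p under 0.05 in limma, 3 regulators were higher and 3 lower after fraction 1, against 5.79% and 7.16% of all tested genes. None of the 17 passed after fraction 2, where 0 were higher and 2 lower at that level, against 3.31% and 3.92%.

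Of 12 tested genes of electron transfer to P450 enzymes and of heme metabolism, among them the heme-degrading Hmox1, 0 passed in either comparison with control in limma, and 2 and 0 reached an unadjusted p under 0.05 after fraction 1 and fraction 2 (12.9% and 7.23% of all tested genes). Their medians were 0.01 and -0.05. A list of 18 tested genes of fatty acid epoxide and arachidonic acid metabolism held epoxide hydrolases, other P450 enzymes of the Cyp2j and Cyp4 families, phospholipases and leukotriene and prostaglandin enzymes. Of these, 0 passed after either fraction, and their medians were -0.22 and -0.05. At an unadjusted p under 0.05 in limma, 2 of these were higher and 7 lower after fraction 1, and 3 higher and 1 lower after fraction 2. The shares over all tested genes were 5.79% higher and 7.16% lower after fraction 1, and 3.31% higher and 3.92% lower after fraction 2. Ephx2, the soluble epoxide hydrolase that breaks down fatty acid epoxides, read 9737.1 and 9050.3 array units in control, 6929.9 and 5963.2 after fraction 1, and 8031.0 and 7611.9 after fraction 2. All treated arrays were below both controls, with differences of -0.55 (limma, adjusted p = 0.136) and -0.26 (adjusted p = 0.748). Among 9 tested bile acid genes that work with Cyp2c70, the oxysterol hydroxylase Cyp7b1 fell after fraction 1, from 3689.2 and 3954.7 to 1595.9 and 1055.3 array units (log2 difference -1.55 ± 0.21; limma, adjusted p = 0.0273), a call kept in 8 of 17 alternatives. At an unadjusted p under 0.05 in limma, 3 of the 9 were higher after fraction 1 and 2 lower, and after fraction 2, where none passed, 1 was higher and 2 lower, to be read against the same shares. The higher genes, named after their values were seen, were Cyp7a1, the rate-limiting enzyme of bile acid synthesis (1.06 after fraction 1), the sterol 12-alpha-hydroxylase Cyp8b1 (0.69 and 0.78) and the peroxisomal oxidase Acox2 (0.56 after fraction 1). The lower genes were Cyp7b1, which stood at -0.61 after fraction 2 (adjusted p = 0.635), and Slc27a5, a bile acid ligase (-0.34 and -0.32).

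Summed signals of stellate, sinusoidal endothelial and Kupffer cell markers were lower on both fraction 1 arrays than on both controls, while those of cholangiocyte and lymphocyte markers overlapped. None of 8 stellate cell, 10 sinusoidal endothelial and 11 Kupffer cell markers passed in either comparison in limma, although 2 of each list were lower at an unadjusted p under 0.05 after fraction 1, where 7.16% of all tested genes were. The summed signal of the stellate list was 6648 to 7541 array units in control, 4125 to 4867 after fraction 1 and 5339 to 6430 after fraction 2. That of the endothelial list was 8772 to 10760, 6844 to 7319 and 8112 to 8786, and that of the Kupffer list 10170 to 11280, 9056 to 9529 and 9856 to 10750. The cholangiocyte sums were 237.6 to 285.7 in control, 190.2 to 362.9 after fraction 1 and 235.5 to 264.9 after fraction 2, with 1 of 7 markers tested. The lymphocyte sums were 535.6 to 677.9, 527.7 to 635.5 and 604.6 to 621 in the same order, with 3 of 8 tested. Markers of pancreas, a neighbouring organ, summed to 13990 to 20780 in control, 10020 to 30310 after fraction 1 and 15470 to 29220 after fraction 2 over 4 genes, with overlapping groups. The pancreatic protease gene Ctrb1 ran from 3538.1 to 11575.2 over the 6 arrays. Alas2, the only tested gene of 5 erythroid markers, fell after fraction 1 (-1.66; limma, adjusted p = 0.0384), a call kept in 7 of 17 alternatives. Of 5 intestinal markers, listed because Cyp2c55 is known from gut, 4 had a probe set and 2 were tested, and their summed signal was 2968 to 4603 in control, 2116 to 2477 after fraction 1 and 3322 to 3872 after fraction 2. The fraction 1 sums lay below both controls and the fraction 2 sums between them. Most of each sum came from 1 tested gene, Fabp2, at 2528.6 and 4043.4 in control. Lgals4, the other tested marker, overlapped with control after fraction 1. After fraction 2 it lay below both controls, at 286.7 and 360.9 against 378.6 and 497.1. Pericentral hepatocyte markers, which mark the zone where many P450 enzymes reside, had medians of -0.20 and -0.18 over 9 genes and periportal markers 0.10 and -0.31 over 7. The part of cell composition in the member values was not tested.

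**Figure D5:**
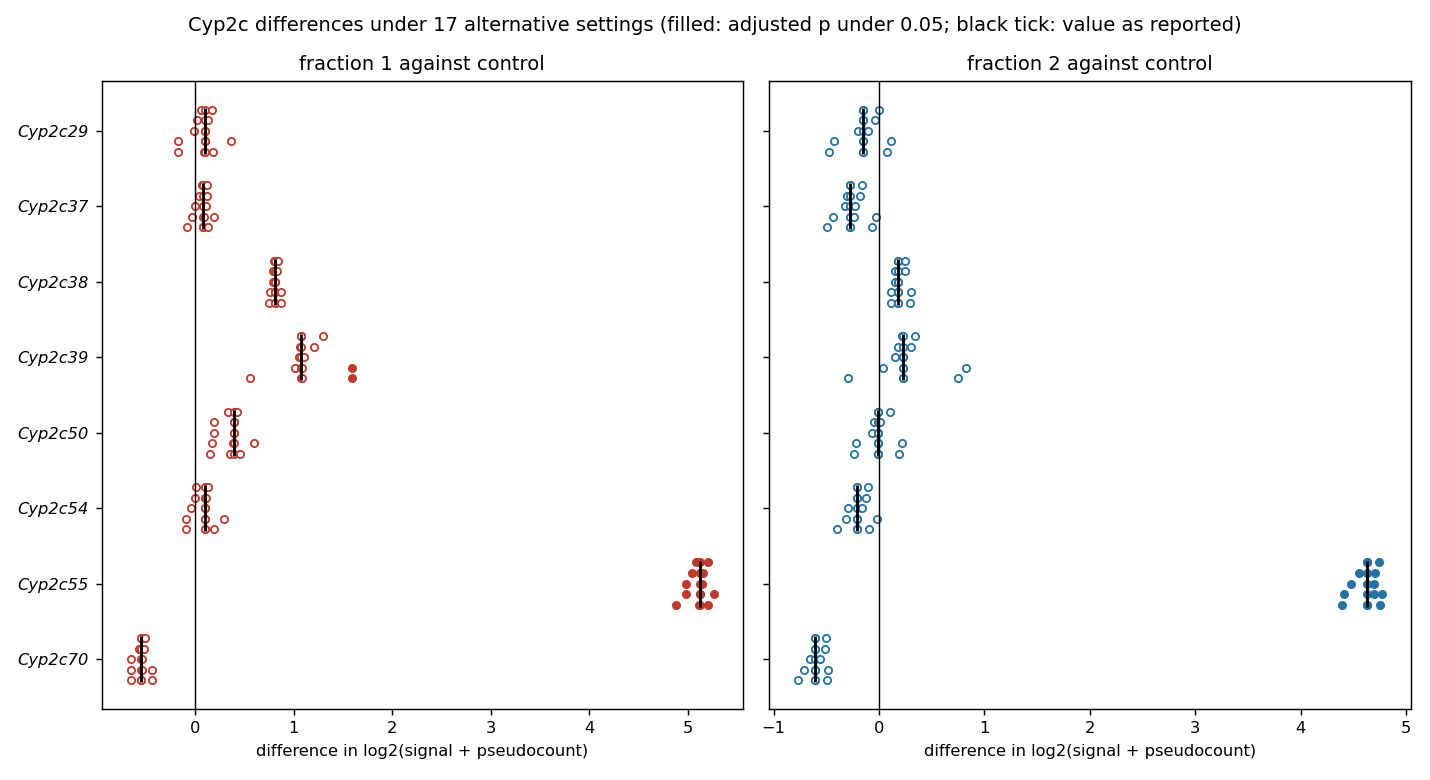
Difference from control for each Cyp2c probe set under 17 alternative settings of scaling, pseudocount, filter, fit, batch and left-out array; filled points have an adjusted p under 0.05 in limma, and the black tick is the reported value. Cyp2c55 is filled throughout, from 4.88 to 5.26 after fraction 1 and 4.39 to 4.77 after fraction 2, Cyp2c39 is filled at 1.59 only, and no other member is filled.

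Over these 17 settings Cyp2c55 passed each time in both comparisons with control, with a highest adjusted p of 0.00193 after fraction 1 and 0.00862 after fraction 2 in limma. Members of this family are similar in sequence, so a probe set of 1 member can also bind RNA of another. Signals of different probe sets were therefore not used to rank the members by expression.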

How the data were processed

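Total RNA of whole liver was measured on 6 Affymetrix MOE430A arrays, 2 for each diet, grouped by the sample titles. The authors deposited 1 linear signal intensity per probe set and array; its software, summary method and scaling: not given in the sources used here. Scan session and chip lot were read per the file headers of the experiment files.

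Of 22690 probe sets, 64 controls were left out, 20380 had 1 gene symbol, 691 several and 1555 none; no gene was named from several. A probe set was tested when at least 2 of 6 arrays reached that array's 40th percentile, and the brightest tested probe set stood for a gene, which gave 9209 genes. Values were log2(signal + 16). The 3 comparisons were fitted over all 6 arrays with limma 3.58.1 in R 4.3.3 (lmFit, eBayes with a variance trend; 3 residual and 5.43 prior degrees of freedom), two-sided, with Benjamini-Hochberg adjustment over 14755 probe sets and a threshold of 0.05. Standard errors and intervals come from that fit; the procedure was tested on simulated data. The labels name no batch, so the reported fit has no block; session and lot, known from the headers, were tried as blocks.

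The members and gene lists were chosen with earlier results of these data known. All members were named; of a list, the up to 6 genes past the threshold in either comparison with control with the smallest p, plus Cyp2b10, Cyp3a11, Nr1i3, Nr1i2 and Ephx2 where tested. Genes on the arrays were matched to the gene table by gene ID for 20351 probe sets. Start regions came from RefSeq (GRCm38.p6) and were aligned with Biopython 1.88. Plots were made in Python 3.11.15 with matplotlib 3.10.9.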

Additional observations from a re-analysis of the deposited data

How the results depend on the processing

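Of the member results, the changes of Cyp2c55 against control kept direction and call in all 17 alternatives, while those of Cyp2c38 and Cyp2c70 against control kept direction without passing. The count of members called after fraction 1 went from 1 to 2 within the first scan session, and with 1 array left out it ran from 1 to 2, the addition being Cyp2c39 each time. The labels do not say whether the replicate letters pair the arrays of the fractions. The deviations of same-lettered arrays correlated at r = 0.0301, which with 2 arrays a group cannot decide it, and both b replicates shared a chip lot. With the letter as a replicate block, on the fraction arrays alone, members called between the fractions went from 0 to 1 (Cyp2c39, 0.85, adjusted p = 0.0474 in limma), and probe sets called from 2 to 75. Probe sets called after fraction 1, 105 as reported, numbered 48 with median centring, 27 without the filter, 12 without the variance trend, 66 within session 1 and 39 with only the groups compared, and 14 to 149 with 1 array left out. After fraction 2, 16 as reported became 10 without the filter, 2 without the trend, 10 with chip lot as a block, 4 within session 1 and 9 with only the groups compared, and 3 to 28 with 1 array left out. Between the fractions, 2 as reported became 0 with quantile normalization, median centring, a pseudocount of 1, no filter, no trend, the session block or session 1 alone, 16 with the lot block, and 0 to 11 with 1 array left out. Median centring moved the median of all probe sets after fraction 2 by 0.12. The causes were not tested.

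Signs turned only for values that had not passed; ranges here are over the arrays left out in turn. After fraction 1, Cyp2c29 stood at -0.018 with the session block and -0.178 within session 1, with a range of -0.178 to 0.364. Cyp2c37 stood at -0.005 with the session block and -0.084 with the lot block, range -0.031 to 0.188. Cyp2c54 stood at -0.049 with the session block, -0.004 with the lot block and -0.092 within session 1, range -0.092 to 0.29. Cyp3a11 stood at -0.053 within session 1 (range -0.053 to 0.37), and Nr1i3 at -0.177 and -0.187 with the session and lot blocks and -0.416 within session 1 (range -0.416 to 0.613). After fraction 2, Cyp2c29 stood at 0.074 with quantile normalization and 0.002 with the lot block, range -0.426 to 0.116, and Cyp2c39 ranged from -0.294 to 0.749. Cyp2c50 stood at 0.103 with median centring and 0.012 within session 1, range -0.241 to 0.217, and Cyp2c23 at 0.023 within session 1, range -0.484 to 0.087. Cyp3a11 stood at 0.231 with quantile normalization, 0.103 with median centring and 0.1 with the lot block, range -0.224 to 0.199. Nr1i2 stood at -0.026 with the lot block and -0.003 within session 1 (range -0.26 to 0.421), and Nr1i3 at -0.295 within session 1 (range -0.333 to 0.696). Alas2 after fraction 2 ranged from -0.682 to 0.133, turning without replicate b. Between the fractions, Cyp2c70 stood at -0.035 with quantile normalization, -0.025 with median centring and -0.031 with the lot block, range -0.049 to 0.169.

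Leaving out 1 array leaves its group with 1, whose spread is taken from the remaining groups, and the chip lot block leaves 1 residual degree of freedom. Other probe sets of a member gene, or sets joining several symbols, could not be tried, since the table used has none.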

Other observations

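Replicate agreement differed between groups for the members: the log2 gap between the arrays of a group ran from 0.09 to 1.04 over the 8 probe sets in control, from 0.01 to 0.22 after fraction 1 and from 0.10 to 0.46 after fraction 2. The control arrays were scanned in different sessions, as were those of fraction 2, whereas those of fraction 1 shared a session. Over all tested probe sets, the control arrays correlated at r = 0.941, those of fraction 2 at 0.969 and those of fraction 1 at 0.97. The part of scan session in the gaps was not tested.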
